A study of Drosophila melanogaster with 55 samples.

Results

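Top3b sites in euchromatin are stretches of the fly genome that 2 Top3b ChIP-seq libraries from control heads both marked as enriched. They were chosen by their Top3b islands: on a grid of 100 bp, the cells that lay inside islands of score 200 or more in both Top3b w1118 replicate 1 and replicate 2 were kept, and cells no more than 600 bp apart were joined. Only the euchromatin of the arms 2L, 2R, 3L and 3R (build dm6), without the pericentric heterochromatin, was searched. The rule found 828 sites of 1152 found with the same rule on all chromosomes. Of the others, 307 lay on X, 8 in the pericentric heterochromatin of chromosomes 2 and 3, 5 on Y and 4 on chromosome 4. The 828 sites covered 2225 kb, or 2.37% of this euchromatin, and had a median length of 2300 bp, with quartiles of 1675 and 3200 bp and extremes of 100 and 20800 bp. There were 144 sites on 2L, 216 on 2R, 208 on 3L and 260 on 3R, which is 6.52, 10.4, 8.95 and 9.31 sites per Mb.

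All libraries came from heads of adult flies, 1 to 2 weeks old. The control was w1118, a stock with wild-type Top3b and AGO2 genes. Top3b26 carries a Top3b mutation made by remobilising a P element, AGO2 1-1-7 is a CRISPR allele with deletions in the promoter and in an exon of AGO2 that the study describes as null, and Top3b26;AGO2 1-1-7 combines both. HP1 was profiled in w1118 (3 libraries), Top3b26 (3), AGO2 1-1-7 (2) and the double mutant (2), and H3K9me2 and H3K9me3 in w1118 and Top3b26 (3 libraries each). Top3b ChIP was done in w1118 alone (3). FLAG ChIP was done in flies with a FLAG-tagged AGO2 (FLAG-AGO2, 2) and in untagged w1118 (1), where it gives the background of that antibody. A complementation set had 1 HP1 library each of w1118, Top3b26, and Top3b26 with a UAS transgene driven by Act-Gal4, which is active in most cells, for wild-type Top3b (Act>Top3bWT), a catalytic-site mutant (Act>Top3bY332F) or a form without the RGG box (Act>Top3bdRGG). A whole head mixes neurons, glia, eye, fat body and muscle, so fewer cells with a protein at a site and less of it per cell cannot be told apart. No Top3b ChIP from Top3b26 was analysed here, so the Top3b antibody has no mutant control at these sites.

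Top3b is a type IA topoisomerase that passes strands of DNA and also acts on RNA. It is found in a complex with Tdrd3, and through it with the fragile X protein FMRP and with AGO2, the Argonaute of the small interfering RNA pathway. HP1 binds histone H3 methylated on lysine 9 and packs heterochromatin, but it is also found at a number of active genes in euchromatin, in fly tissues as in others. A ChIP island is a run of windows with more reads than the input DNA, and open, highly transcribed chromatin is known to be recovered to some extent with any antibody.

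Tandem CAG triplets were the plainest sequence feature of one class of sites, those that lie in gene bodies and hold exon bases but no transcription start. The stretches shown are 150 bases of coding exon each, on the gene strand, taken from the RefSeq genome (dm6), and the capitals mark CAGCAGCA. They lie in Clk, the activator of the circadian clock (chr3L:7764798-7764947, minus strand), Atx2, an RNA-binding regulator of translation (chr3R:15413989-15414138, plus strand), sr, a zinc-finger transcription factor of the Egr type (chr3R:18131279-18131428, plus strand), and pros, a homeodomain protein of neural differentiation (chr3R:11375888-11376037, plus strand). These genes were picked after their values were seen.
Clk: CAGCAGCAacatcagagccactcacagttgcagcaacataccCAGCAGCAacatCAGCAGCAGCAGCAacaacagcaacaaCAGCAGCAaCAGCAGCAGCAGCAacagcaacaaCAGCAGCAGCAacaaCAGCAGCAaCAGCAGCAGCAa
Atx2: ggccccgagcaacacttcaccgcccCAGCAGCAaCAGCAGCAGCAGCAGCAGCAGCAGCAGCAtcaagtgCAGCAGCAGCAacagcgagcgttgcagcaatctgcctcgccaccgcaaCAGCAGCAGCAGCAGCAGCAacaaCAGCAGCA
sr: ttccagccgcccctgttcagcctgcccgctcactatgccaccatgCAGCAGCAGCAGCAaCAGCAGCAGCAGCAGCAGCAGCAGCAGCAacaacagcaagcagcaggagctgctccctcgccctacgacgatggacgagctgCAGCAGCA
pros: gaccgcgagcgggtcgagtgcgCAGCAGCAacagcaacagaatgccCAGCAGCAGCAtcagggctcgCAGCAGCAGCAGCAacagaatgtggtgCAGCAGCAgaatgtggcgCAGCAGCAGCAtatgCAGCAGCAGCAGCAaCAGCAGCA
In one reading frame CAG is a glutamine codon. The repeat in an intron of gpp, which encodes the Dot1 histone methyltransferase (chr3R:6416663-6416812, plus strand), is of another kind: a run of CA, with CACACACA in capitals. Its site was 300 bp long and was at least 66.7% inside islands of every HP1, H3K9me2 and H3K9me3 library of w1118.
gpp: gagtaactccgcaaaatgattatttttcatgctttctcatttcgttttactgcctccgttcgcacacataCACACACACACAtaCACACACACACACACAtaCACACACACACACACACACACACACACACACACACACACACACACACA

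Most sites, in contrast, sat on promoters, and 200 bases before 5 starts are shown, on the gene strand, because they carry the motifs whose shares are given further on. TATCGATA, the DNA replication-related element, is in capitals before the starts of eIF4A, the translation initiation helicase (chr2L:5981564-5981763, plus strand, first capital at -52), Top2, the type II topoisomerase (chr2L:19453491-19453690, minus strand, at -54), and CTCF, an insulator protein (chr3L:7356714-7356913, minus strand, at -21).
eIF4A: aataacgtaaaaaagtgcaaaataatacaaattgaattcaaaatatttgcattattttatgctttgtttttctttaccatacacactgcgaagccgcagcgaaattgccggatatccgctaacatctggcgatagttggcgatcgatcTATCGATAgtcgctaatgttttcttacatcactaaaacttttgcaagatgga
Top2: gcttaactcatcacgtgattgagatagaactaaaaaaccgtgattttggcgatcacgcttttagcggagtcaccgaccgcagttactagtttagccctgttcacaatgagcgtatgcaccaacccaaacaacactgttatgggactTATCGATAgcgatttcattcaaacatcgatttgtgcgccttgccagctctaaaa
CTCF: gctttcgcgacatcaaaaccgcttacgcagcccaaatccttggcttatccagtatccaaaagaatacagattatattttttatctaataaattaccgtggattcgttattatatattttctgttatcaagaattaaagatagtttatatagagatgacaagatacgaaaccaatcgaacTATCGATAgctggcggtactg
GGTCACAC, the element called core promoter Motif 1, is in capitals before spen, a nuclear RNA-binding protein (chr2L:158832-159031, plus strand, at -24). Runs of GA and CA, read on either strand, are in capitals before Rim, a protein of the presynaptic active zone (chr3R:17916579-17916778, minus strand, from -181).
spen: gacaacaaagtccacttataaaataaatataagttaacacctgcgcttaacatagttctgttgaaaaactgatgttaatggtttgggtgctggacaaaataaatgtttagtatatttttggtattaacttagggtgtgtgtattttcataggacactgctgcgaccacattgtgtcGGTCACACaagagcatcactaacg
Rim: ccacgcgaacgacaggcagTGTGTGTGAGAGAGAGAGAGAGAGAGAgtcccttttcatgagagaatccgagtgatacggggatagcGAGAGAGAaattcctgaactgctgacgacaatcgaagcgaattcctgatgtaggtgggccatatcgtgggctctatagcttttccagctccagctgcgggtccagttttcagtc

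MicroRNA genes were hosts of the longest site and of a site with HP1 in every w1118 library, so their mature RNAs are shown with the seed, bases 2 to 8, in capitals (RefSeq, dm6). The 20800-bp site at chr3R:10080301-10101100 holds mir-317, mir-277 and mir-34, whose seeds differ from each other.
mir-317-3p: uGAACACAgcuggugguauccagu
mir-277-3p: uAAAUGCAcuaucugguacgaca
mir-34-5p: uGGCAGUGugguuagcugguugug
The 3100-bp site at chr3R:15416401-15419500, in Atx2, holds mir-2c, mir-13a and mir-13b-1, which share the seed AUCACAG.
mir-2c-3p: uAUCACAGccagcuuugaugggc
mir-13a-3p: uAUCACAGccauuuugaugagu
mir-13b-1-3p: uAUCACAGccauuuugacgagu

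The scores that chose the sites are given as a description. SICER scores of the members had a median of 286.5 in replicate 1, with a highest value of 2234, and a median of 438.5 in replicate 2, with a highest value of 4580. The lower of a site's scores was 200 at the members nearest the limit and below 220 in 162 of the 828. Just outside, the highest lower score was 199, and 181 stretches fell between 180 and 199. With no minimum score the same procedure gave 4102 stretches. Per kilobase of site, scores in the 2 replicates that made the rule had a Spearman's rho of 0.59. The 828 sites share both libraries, are not independent replicates and were chosen by these scores. Both scores are divided by the same site length, so length can contribute to this value.

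The sites lay at gene starts. A transcription start fell inside a site or within 250 bp of it for 662 of the 828 sites (80.0%), against 34.5% of windows of 2300 bp tiled over the same euchromatin. In 655 the start was inside and in 7 within reach. Of the remaining sites, 74 lay in a gene body with exon bases, 76 lay in an intron alone and 16 lay between genes. Site bases were 17.8% 5' untranslated exon, against 3.79% of the euchromatin, and 12.7% coding exon, against 19.3%. Intron made up 45.8% of site bases and 41.6% of the euchromatin, and sequence between genes 16.8% and 28.1%. Starts numbered 7.16 per 10 kb in sites and 2.01 per 10 kb in all.

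Around the 901 protein-coding starts inside sites, the median site reached 1228 bp upstream and 1151 bp downstream, and at 50.7% of these starts the site reached further downstream. The plot of islands around starts shows that HP1 of w1118 was centred there too. At the start it covered 72.1%, 92.6% and 48.6% of these genes in replicates 1, 2 and 3. At 3000 bp upstream it covered 11.2%, 29.5% and 15.9%. The untagged FLAG background was centred there as well, with 99.2% at the start and 49.9% at 3000 bp upstream. How far the HP1 islands at starts hold recovery that does not depend on the antibody was not tested. H3K9me2 of w1118 was lower at the start than at either flank, with 0.777%, 4.22% and 1.55% at the start and 3.44%, 9.10% and 3.77% at 3000 bp upstream. Top3b replicate 3, which the rule did not use, covered 7.66% of these starts.

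**Figure D1:**
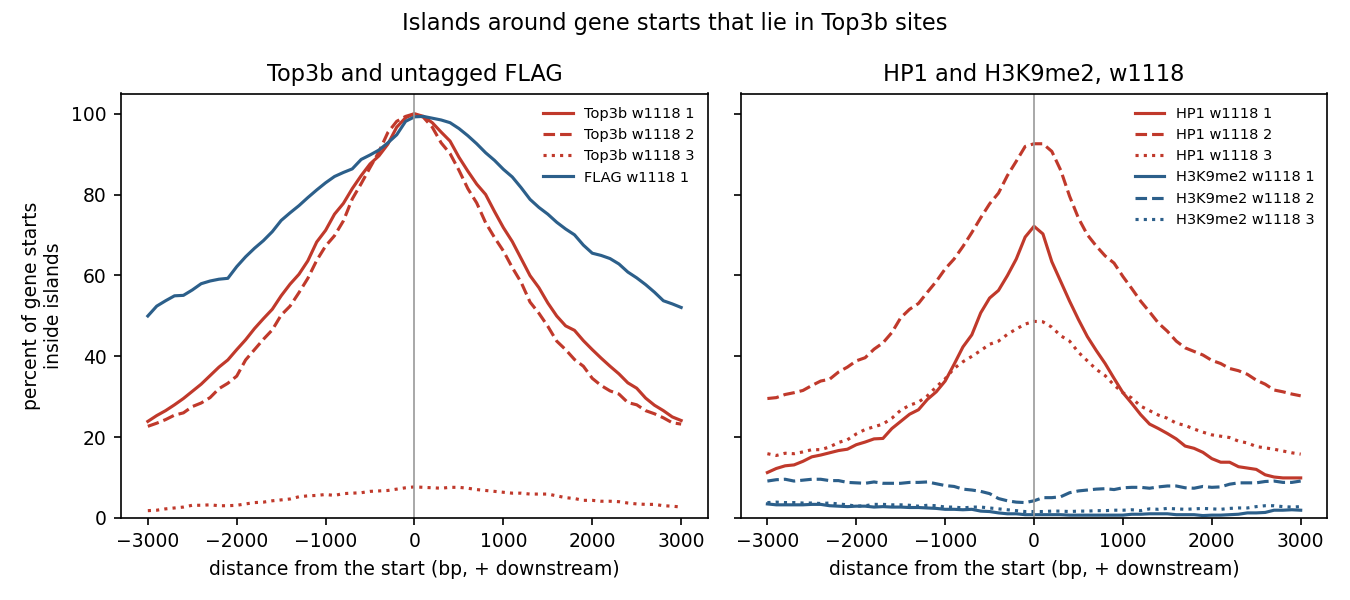
Percentage of 901 protein-coding gene starts in Top3b sites (y axis) that lie inside islands at each distance from the start (x axis, bp, positive downstream), with 1 line per library. Top3b replicates 1 and 2 reach 100% at the start because the starts were chosen by those lists. HP1 of w1118 peaks at 72.1%, 92.6% and 48.6%, and the untagged FLAG background is at 99.2% at the start, while H3K9me2 dips.

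Sites overlapped 1297 genes, which is 8.82% of all genes there, and 1124 protein-coding genes, 9.71% of 11576. Overlapped protein-coding genes were long, with a median of 5.79 kb against 1.96 kb for the others, and a long gene has more room for a site. Of the sites, 381 overlapped 1 gene, 428 overlapped 2 or more and 19 overlapped none. Several sites often fell in the same gene: 118 genes had 2 or more. The overlapping genes Glut4EF and CG46467 had 8, as did mam, which encodes the Notch coactivator Mastermind, while the ecdysone-response genes Eip74EF and Eip93F had 6 each. Tet, shn, sif and tara had 5 each.

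The site with the highest scores and the greatest length, 20800 bp with mir-317, mir-277 and mir-34, scored 2234 and 4580 in Top3b replicates 1 and 2. HP1 islands covered 30.3%, 100% and 0% of it in the w1118 replicates, 0% in both AGO2 1-1-7 libraries, 0%, 100% and 0% in Top3b26, and 0% and 14.9% in the double mutant. It was high in replicate 2 of w1118 and of Top3b26 and at or near 0 in most other libraries, so the lines overlapped. No H3K9 island touched it in any library.

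The site of tara (chr3R:16234601-16243400), a regulator of the cell cycle and of sleep, was 8800 bp long and scored 1075 and 2038. Its HP1 coverage was 100%, 100% and 100% in w1118, 100% and 92.0% in AGO2 1-1-7, 92.0%, 100% and 100% in Top3b26 and 87.5% and 100% in the double mutant. Thus HP1 was over nearly all of this site in all 10 of these libraries, and none had an H3K9 island there in w1118 or Top3b26. COX7AL2 (chr2L:2196001-2203700), a gene of the cytochrome c oxidase family, was covered at 100% in all 10 and in all 5 libraries of the complementation set. HmgZ and HmgD, neighbouring genes for HMG-box proteins that bend DNA, shared a site of 8600 bp at chr2R:21696401-21705000 with HP1 from 57.0% to 100% in the 10 libraries.

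Between these extremes lay Pgk with Bacc (chr2L:2748101-2756300), of which Pgk encodes the glycolytic phosphoglycerate kinase. Scores were 1591 and 2332. HP1 covered 97.6%, 98.8% and 100% in w1118, 0% and 100% in AGO2 1-1-7, 100%, 100% and 0% in Top3b26 and 96.3% and 100% in the double mutant. In 8 of 10 libraries it was therefore almost whole, and in the other 2, of different lines, it was absent. The site of 14-3-3epsilon, an adaptor of phosphorylated proteins, with 11400 bp at chr3R:18242001-18253400, had HP1 over 43.0%, 51.8% and 0% in w1118 and over 0% to 43.9% in the mutant lines.

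FLAG ChIP from untagged flies marked nearly all of the sites, among many other places. Islands of the untagged FLAG library took up at least 50% of the site for 815 of 828 sites (98.4%), against 18.1% of 1-kb windows of the euchromatin, and those of FLAG-AGO2 replicate 1 for 814 (98.3%), against 14.4%. The untagged library covered 95.9% of site bases and 15.6% of the rest, and 12.97% of its island length lay in sites. Site scores per kilobase in Top3b replicate 1 and in the untagged FLAG library had a Spearman's rho of 0.47, and those of the untagged and FLAG-AGO2 libraries one of 0.70 (828 sites, the same genome positions). These scores too were divided by the same site lengths. FLAG-AGO2 replicate 2, whose list had the signal of untagged flies subtracted by the authors, marked 0 of the 828 sites, against 0.489% of windows, and touched 1. How far the Top3b islands hold recovery that does not depend on the antibody was not tested.

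Only 13 sites were less than 50% covered by untagged FLAG, and 5 were free of it. Of the 13, 7 were in FLAG-AGO2 replicate 1, among them introns of the ecdysone-response genes ftz-f1 (76.5% against 41.2% untagged) and Eip74EF, an intron of mam (71.4% against 0%) and the start of tei (100% against 47.4%). The 3600-bp site of chrb (chr3L:11490301-11493900), an inhibitor of TOR signalling, scored 342 and 631 for Top3b and lay outside the islands of every other list, Top3b replicate 3 included. A 2700-bp site at CG8665 and nrv3, the latter a sodium pump subunit (chr2L:21377601-21380300), had no FLAG island but HP1 at 100% in each w1118 library.

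Top3b replicate 3, which was called in windows of 200 bp and kept 717 islands of score 200 or more of 9071, is the one Top3b list that is independent of the rule. Its islands took up at least 50% of 140 sites (16.9%), against 0.863% of windows. Its coverage was 13.5% of site bases and 0.560% of the rest. With the sites split into 4 equal sets by score per kilobase in replicates 1 and 2, from the lowest to the highest, the share was 9.66%, 7.25%, 18.4% and 32.4%. These sets also differed in median length, at 2900, 2600, 2200 and 1600 bp. Their shares with a start were 79.2%, 86.5%, 86.5% and 67.6%. The share in replicate 3 also differed by position in the gene. Of gene-body sites with exon bases 60.8% were in replicate 3, of intron sites 31.6%, of sites that hold a start 10.5% and of sites between genes 6.25%. The highest-scoring site, that of mir-317, was not in it, nor was that of tara at chr3R:16234601-16243400.

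CAG repeats were densest in the gene-body sites. CAGCAGCA, counted on both strands with overlaps, occurred 88.4 times per 10 kb in gene-body sites with exon bases, 8.75 times in sites that hold a start, 12.5 times in intron sites, 10.1 times in sites between genes, 23.9 times in the 7 sites within reach of a start and 3.59 times in the euchromatin as a whole. Sites with 10 or more matches, a limit set after the values were seen and therefore given without a test, numbered 96 (11.6%): 46 in gene bodies with exon bases, 44 at starts, 5 in introns and 1 within reach of a start. In these sites 78.0% of the bases in matches were coding. Besides Clk, Atx2, sr and pros, they included vn, a ligand of the EGF receptor (42 matches), dikar (48), velo (58) and Ptip (47), and the start-bearing site of Ncoa6, a nuclear receptor coactivator (75).

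Of the 96 CAG-rich sites 67 were in Top3b replicate 3 (69.8%), and of the other 732 sites 73 (9.97%). Seen from the other side, 47.9% of the 140 sites in replicate 3 were CAG-rich and 4.22% of the 688 not in it. Within gene-body sites with exon bases, 87.0% of the CAG-rich and 17.9% of the other 28 were in replicate 3. Outside the sites, 312 1-kb windows had as many matches. Of these, 16.99% were in Top3b replicate 3, against 0.451% of other windows, and 60.3% were in the untagged FLAG list, against 15.7%. CAG-rich sequence was therefore marked more often in the untagged control as well, and what part of the replicate 3 islands this accounts for was not tested.

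H3K9me2 was also more frequent at CAG-rich sites. In w1118 it occupied 14.6%, 48.96% and 18.8% of CAG-rich sites in replicates 1, 2 and 3, and 1.09%, 5.46% and 2.32% of the other sites. For the 46 CAG-rich gene-body sites the shares were 30.4%, 76.1% and 32.6%, and for the 44 CAG-rich sites that hold a start 0%, 20.5% and 4.55%, so the higher shares lay mainly in gene bodies. In CAG-rich windows outside the sites the H3K9me2 shares were 9.62%, 21.8% and 9.29%, against 4.36%, 7.25% and 4.75% of other windows. The higher frequency was therefore not particular to the sites. HP1 in all 3 w1118 libraries was found at 55 of the 96 (57.3%) and at 283 of the other 732 (38.7%). In AGO2 1-1-7 replicate 1 HP1 occupied 41.7% of CAG-rich and 10.8% of other sites, and in Top3b26 replicate 1 72.9% and 33.5%. Top3b26 replicate 3 ran the other way, with 15.6% and 25.5%, so the direction did not hold in every library. It was also reversed in w1118 replicate 2, with 83.3% and 90.3%, and in all 5 libraries of the complementation set, for example 3.12% and 13.7% in w1118. Outside the sites, HP1 of w1118 occupied 19.6%, 15.4% and 26.3% of CAG-rich windows and 4.42%, 9.20% and 5.55% of other windows. There too Top3b26 replicate 3 ran the other way, with 1.28% and 5.06%, as did the complementation set, with 0.321% and 4.04% in w1118.

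**Figure D2:**
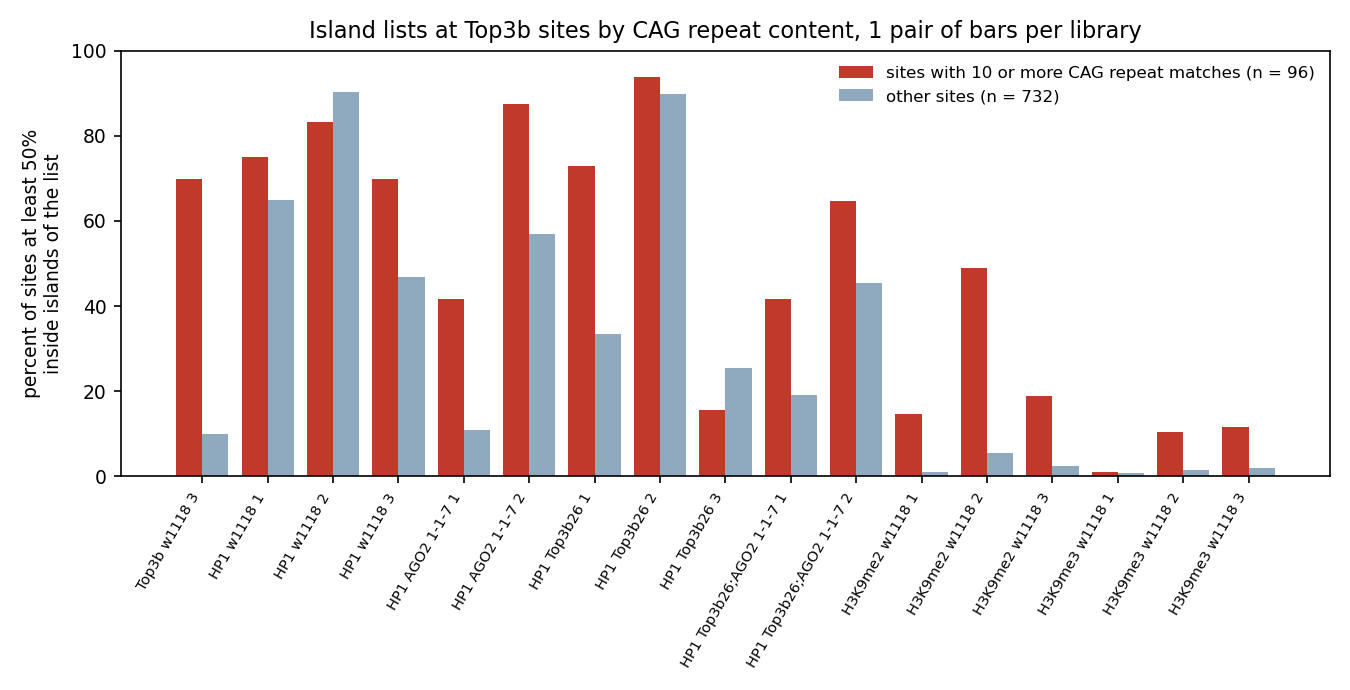
Percentage of Top3b sites at least 50% inside islands (y axis) in each library (x axis, group and replicate number), for 96 sites with 10 or more CAG repeat matches (red) and the other 732 (blue). Bars are single libraries without error; the red bar is the higher in the Top3b library and each H3K9me2 and H3K9me3 library shown, as at 69.8% against 9.97% for Top3b replicate 3, and the lower in HP1 w1118 replicate 2 and HP1 Top3b26 replicate 3.

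The sites of Clk, sr and pros, given next, had H3K9me2 in every w1118 library, which most CAG-rich sites did not. The sites of Atx2, dikar and velo had it in 1 w1118 library, and that of Ncoa6 in 0. At the Clk site (chr3L:7764301-7765700), HP1 covered 100%, 100% and 100% in w1118, 100% and 92.9% in AGO2 1-1-7, 100%, 100% and 0% in Top3b26 and 100% and 100% in the double mutant. H3K9me2 covered 100%, 100% and 92.9% in w1118 and 100% in each Top3b26 library. H3K9me3 was at 0% in w1118 and at 100%, 100% and 0% in Top3b26. HP1 was thus nearly whole in 9 of 10 libraries, and H3K9me3 was present in 2 libraries of Top3b26 and in none of the control. The sr site (chr3R:18130501-18132400) had H3K9me2 and H3K9me3 at 100% in all 12 libraries and HP1 at 100% in 9 of 10, again with Top3b26 replicate 3 at 0%. At the pros site (chr3R:11375201-11377400) HP1 gave the same 9 of 10, H3K9me2 was at 100%, 95.5% and 100% in w1118 and at 0%, 100% and 0% in Top3b26, and those groups overlapped. The complementation set differed from these 10 libraries. Of the 46 CAG-rich gene-body sites, Clk, sr and pros among them, HP1 of that set occupied 0 in w1118 and 0 with Act>Top3bWT. It occupied 4 in Top3b26, 8 with Act>Top3bY332F and 1 with Act>Top3bdRGG.

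HP1 of the control occupied many Top3b sites. Coverage of site bases in w1118 was 57.8%, 86.8% and 45.6% (63.4% ± 21.2, SD, n = 3), against 4.38%, 9.24% and 5.64% of the rest of the euchromatin. The ratio of site to rest was 13.2, 9.39 and 8.09. By site, 547, 741 and 410 were at least 50% covered. HP1 was in all 3 libraries at 338 sites (40.8%), against 4.06% of 1-kb windows, in 2 at 255, in 1 at 174 and in none at 61 (7.37%), against 87.3% of windows. From the lowest to the highest of the 4 sets by Top3b score per kilobase, 29.5%, 41.1%, 41.5% and 51.2% of sites had HP1 in all 3. The median length of these sets fell from 2900 to 1600 bp, so score was not separated from length. HP1 in all 10 numbered libraries was at 3.38%, 6.76%, 3.38% and 9.18% of their sites. Untagged FLAG scores per kilobase also rose with those of HP1 in w1118, with Spearman's rho of 0.42, 0.40 and 0.28 for HP1 replicates 1, 2 and 3. The values were 0.42, 0.26 and 0.23 for Top3b replicate 1 and 0.45, 0.32 and 0.25 for Top3b replicate 2. The rise of HP1 with Top3b score was therefore not separated from the FLAG background either. Sites between genes were few but well covered, at 93.8%, 93.8% and 56.2% of 16 sites.

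**Figure D3:**
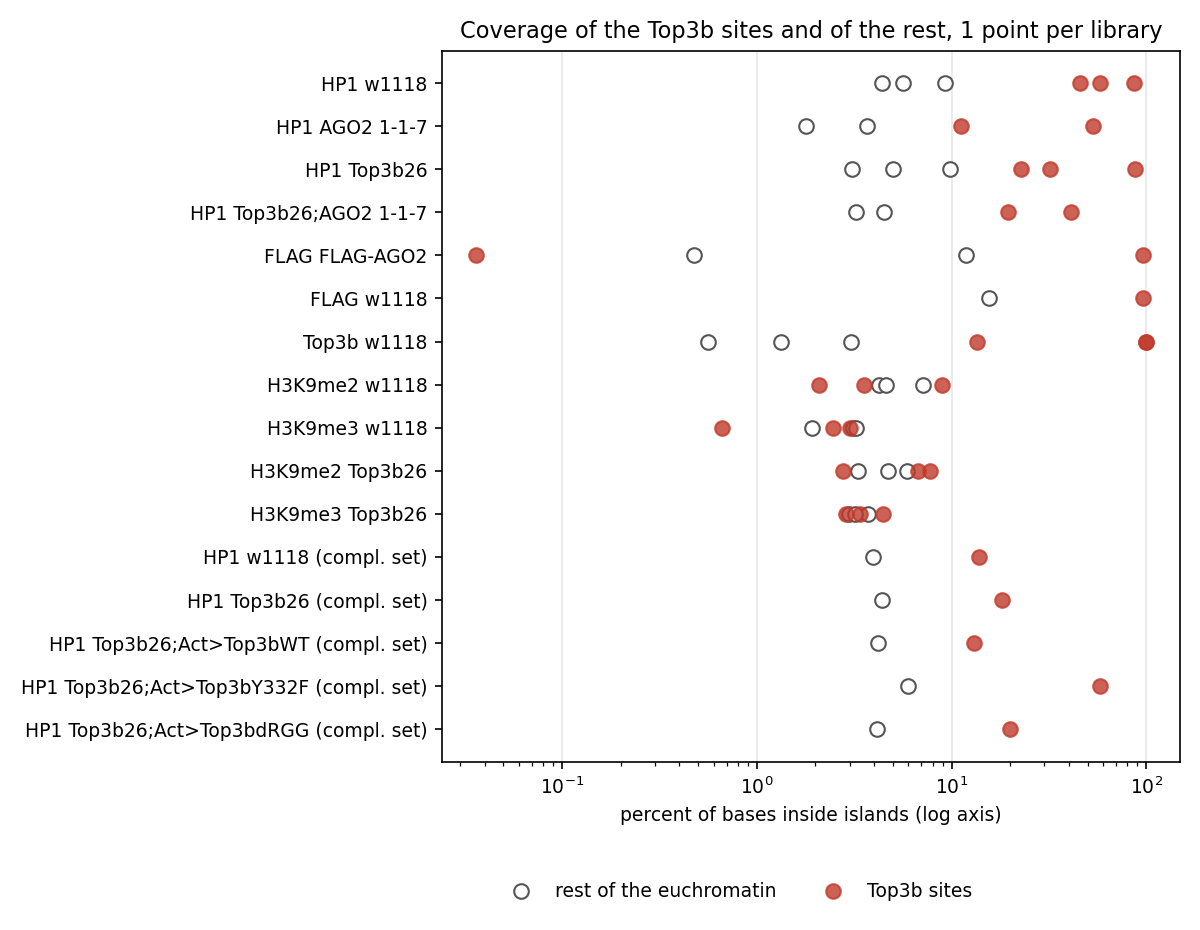
Percentage of bases inside islands (x axis, log scale) for the Top3b sites (filled) and the rest of the euchromatin (open), with 1 point per library and 1 row per group. HP1 points lie further right for the sites in every library, for example 57.8%, 86.8% and 45.6% against 4.38%, 9.24% and 5.64% for HP1 in w1118, while the H3K9me2 and H3K9me3 points of sites and rest intermingle; FLAG-AGO2 replicate 2 is the one FLAG point further left for the sites, and Top3b replicates 1 and 2 are at 100% by the rule.

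Among the longest sites unoccupied by HP1 in all w1118 libraries, with their w1118 coverage in replicates 1, 2 and 3, were an intron of Eip75B, a nuclear receptor induced by ecdysone (chr3L:18029001-18035400, 31.2%, 40.6% and 0%), CycG with Med (chr3R:31605801-31611700, 11.9%, 0% and 0%), Arf1, a GTPase of vesicle budding (chr3L:22867501-22872600, 37.3%, 49.02% and 0%), and spen with ND-15 (chr2L:154801-159700, 0%, 28.6% and 0%). These have HP1 islands over part of their length but under the 50% that counted as occupied. Their Top3b scores ran from 316 to 542 in replicate 1 and from 653 to 2083 in replicate 2.

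The mutants were compared to ask whether HP1 at Top3b sites depended on Top3b or AGO2. In Top3b26 HP1 covered 31.9%, 87.9% and 22.8% of site bases (47.5% ± 35.2, SD, n = 3), a difference of -15.9 percentage points from w1118 with overlapping groups (exact two-sided permutation p = 0.6). It was -3.51 points without Top3b26 replicate 3, -4.18 without w1118 replicate 2, -8.06 without Top3b26 replicate 1, -24.8 without w1118 replicate 3 and -36.1 without Top3b26 replicate 2. Replicate 2 was alike in both lines, and replicates 1 and 3 were lower in Top3b26. By the replicate number, which was taken to pair these libraries, 57.8% stood against 31.9%, 86.8% against 87.9% and 45.6% against 22.8%, and the blocked sign-flip test gave the same difference with an exact p = 0.5. In AGO2 1-1-7 coverage was 11.2% and 53.3%, or -31.1 points (exact p = 0.4), with -10.1 left without its replicate 1, -52.2 without its replicate 2 and -19.4 without w1118 replicate 2. In the double mutant it was 19.4% and 41.2%, or -33.1 points, with both libraries below all 3 of w1118 (exact p = 0.2), and from -21.4 without w1118 replicate 2 to -43.9 without its own replicate 2.

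Between mutants, the double mutant was -17.2 points from Top3b26 (exact p = 0.8) and -1.93 points from AGO2 1-1-7 (exact p = 1). The smallest p was 0.1 for 3 libraries against 3 or 2 and 0.333 for 2 against 2, so no difference could pass 0.05, and over the 14 tests of HP1 and H3K9 marks every Benjamini-Hochberg adjusted p from these exact tests was 0.933 or 1. Lists that cover less everywhere cover fewer sites, so the ratio to the rest was also compared. It was 10.4, 8.97 and 4.55 in Top3b26 (-2.25, exact p = 0.5), 6.23 and 14.6 in AGO2 1-1-7 (0.176, exact p = 1) and 6.04 and 9.12 in the double mutant (-2.64, exact p = 0.4). The mutant libraries thus ran from 4.55 to 14.6, around the control's range of 8.09 to 13.2. Replicates 2 and 3 of HP1 in w1118 and Top3b26 were lists with at least 1100 bp between islands, against 700 bp in the other HP1 lists; with w1118 replicate 1 as the sole control AGO2 1-1-7 differed by -2.79 in ratio, and the double mutant by -5.61. Against Top3b26 replicate 1 alone, the double mutant differed by -1.56 points in coverage and -2.80 in ratio. These comparisons with a single control library were chosen after seeing the data.

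By site, of the 338 with HP1 in all w1118 libraries, 132 were occupied in all 3 Top3b26 libraries, 121 in 2, 85 in 1 and 0 in none, where 0.0319% of windows had HP1 in all of w1118 and none of Top3b26. In AGO2 1-1-7, 95 were occupied in both libraries, 200 in 1 and 43 in none. Those 43 are 5.19% of all sites, against 1.08% of windows. In the double mutant 147 were occupied in both, 131 in 1 and 60 in none, which is 7.25% of sites against 0.426% of windows. Sites were occupied by HP1 in w1118 far more often than windows, which raises such shares before any change, so nothing about the sites is read from them.

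The longest of the 43 were mir-14 (chr2R:9549401-9557300), where HP1 covered 69.6%, 100% and 100% in w1118 and 0% and 0% in AGO2 1-1-7, and its neighbour at CG1888 and brp, the active-zone scaffold gene (chr2R:9540301-9547500), with 70.8%, 100% and 69.4% against 0% and 0%. Both were also unoccupied in the double mutant, at 13.9% and 0% and at 47.2% and 0%. In Top3b26 each was at 0%, 100% and 0%. Here only replicate 2 of Top3b26 resembled the control. The site of alphaTub84B, a major alpha-tubulin (chr3R:7085401-7091500), had 98.4%, 100% and 100% in w1118, 0% and 0% in AGO2 1-1-7, and 0% and 100% in the double mutant. One site, in fru, the sex-specific behaviour gene (chr3R:18421201-18423600), had HP1 in both AGO2 1-1-7 libraries (100% each) and was under 50% in every w1118 library (33.3%, 0% and 0%), against 0.0298% of windows. HP1 was in all 10 libraries of the 4 lines at 47 sites (5.68%), against 1.23% of windows. Here too the sites start from more HP1 in w1118. Among regions with HP1 in all w1118 libraries, these were 47 of 338 sites and 1156 of 3813 windows, a smaller share of the sites. The longest of the 47 were 3 sites of tara and those of HmgD with HmgZ, COX7AL2, Hacd1 and Adf1.

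H3K9 methylation was rare at the sites, as in the rest of the euchromatin. H3K9me2 covered 2.08%, 8.94% and 3.54% of site bases in w1118, with ratios to the rest of 0.488, 1.26 and 0.767, and H3K9me3 covered 0.665%, 2.47% and 3.01%, with ratios of 0.348, 0.792 and 0.936. H3K9me2 was in all w1118 libraries at 16 sites (1.93%), against 3.01% of windows, and H3K9me3 at 5 (0.604%), against 1.8% of windows. No H3K9 mark reached 50% in any w1118 library at 726 sites (87.7%), and at 270 of the 338 with HP1 in all 3 (79.9%). In w1118 the rest of the euchromatin was covered at 4.26% to 7.10% by H3K9me2 and at 1.91% to 3.22% by H3K9me3. Absence of these marks was thus not particular to the sites. Of the 338, 13 (3.85%) had H3K9me2 in all w1118 libraries and 5 (1.48%) had H3K9me3. The 5 with H3K9me3 were Muc68Ca, a mucin gene, Sgs1, a glue protein gene of the salivary gland, sr, CG12581 and gpp. Muc68Ca (chr3L:11616001-11619500) and Sgs1 (chr2L:4938101-4941000) had both marks at 100% in all 12 libraries of the 2 lines, while HP1 at Muc68Ca was 100% in each w1118 and Top3b26 library, 0% and 0% in AGO2 1-1-7 and 0% and 100% in the double mutant.

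In Top3b26, H3K9me2 covered 2.77%, 6.73% and 7.78% of site bases, 0.903 points above w1118 (exact p = 0.9), with a ratio difference of 0.476 (exact p = 0.4). H3K9me3 covered 2.86%, 4.45% and 3.38%, 1.52 points above w1118 (exact p = 0.2, groups overlapping). Its ratio to the rest was 0.962, 1.19 and 1.05 in Top3b26 against 0.348, 0.792 and 0.936 in w1118. These groups did not overlap, the difference was 0.378, and the exact p of 0.1 is the smallest this design allows. The difference was 0.206 without w1118 replicate 1, 0.4998 without w1118 replicate 3 and 0.176 over sites of score 400 or more. H3K9me3 was in all Top3b26 libraries and no w1118 library at 2 sites, KCNQ with mlt and Leash with Ak3, against 0.0755% of windows, and the reverse occurred at none. One input DNA library served all H3K9 libraries of each line.

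The complementation set had 1 library a line and no test. HP1 covered 13.8% of site bases in w1118, 18.3% in Top3b26, 13.1% with Act>Top3bWT, 58.0% with Act>Top3bY332F and 19.9% with Act>Top3bdRGG. Act>Top3bY332F stood alone, also by the ratio to the rest, at 9.76 against 3.14 to 4.84. Of the 338 sites with HP1 in all numbered w1118 libraries, the w1118 library of this set occupied 92 and the Act>Top3bY332F library 268. The w1118 library here was thus far below the 45.6% to 86.8% of the numbered w1118 libraries, so values were not compared across the sets.

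Genes of the lists examined differed in how many held a site, against 8.82% of all genes. The fullest were transcription factors of neuronal activity, 7 of 9, among them sr, Hr38 and kay, the fly Fos, and genes of the ecdysone and juvenile hormone response, 12 of 19, including EcR, Eip74EF, Eip75B, Eip93F and Kr-h1. Only 3 of the 9 had their own start at a site, against 12 of the 19. The sites of sr and Hr38 were CAG-rich stretches inside the gene. Both lists are of long genes, with medians of 17.8 and 39.9 kb. The glycolysis list had 8 of 14, such as Pgk, Eno, Gapdh1, Tpi and PyK, all with the start in the site. Among the 8 were also Argk1, for an arginine kinase, and Gpdh1, for a glycerol-3-phosphate dehydrogenase, which are not glycolytic enzymes. The median gene length of this list, 5.04 kb, was shorter, but above the 1.96 kb of protein-coding genes without a site. The circadian clock list, with a median of 7.68 kb, had 6 of 14, namely Clk, Pdp1, cyc, vri, dco and tws. The list named for HP1, H3K9 methylation and insulator genes had 10 of 25, including Su(var)3-9, Trl and CTCF. It also held Pc, Psc and Su(z)2, which are Polycomb-group genes and do not match the name of the list. The site of Su(var)3-9 was the same as that of eIF2gamma, a gene of the translation factor list.

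Ribosomal protein genes had 21 of 74 and translation factor genes 7 of 23, including eIF4A, eEF1alpha1 and pAbp, against 12 of 74 for oxidative phosphorylation. Synaptic genes had 11 of 31, such as brp, Rim, Syt1, nSyb and cpx, and voltage-gated channel genes 7 of 27. These 2 lists had median gene lengths of 24.4 and 14.7 kb. Of the phototransduction list 2 of 29 had a site, one of them ninaE, which encodes the major rhodopsin. Heat shock genes had 4 of 24, Hsp83, Hsc70-4, DnaJ-1 and lncRNA:Hsromega. Replication-dependent histone genes (0 of 111), small nuclear RNA genes (0 of 30), the list of head fat body and glial secreted proteins (0 of 17) and Hox genes (0 of 8) had none. Reads that matched over 3 places were left out in mapping, so the near-identical copies of the histone repeat could hardly gain an island, and their 0, like that of repeated small nuclear RNA genes, is no measure of binding. Transfer RNA genes, at 23 of 266, and microRNA genes, at 17 of 197, were near the share of all genes.

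**Figure D4:**
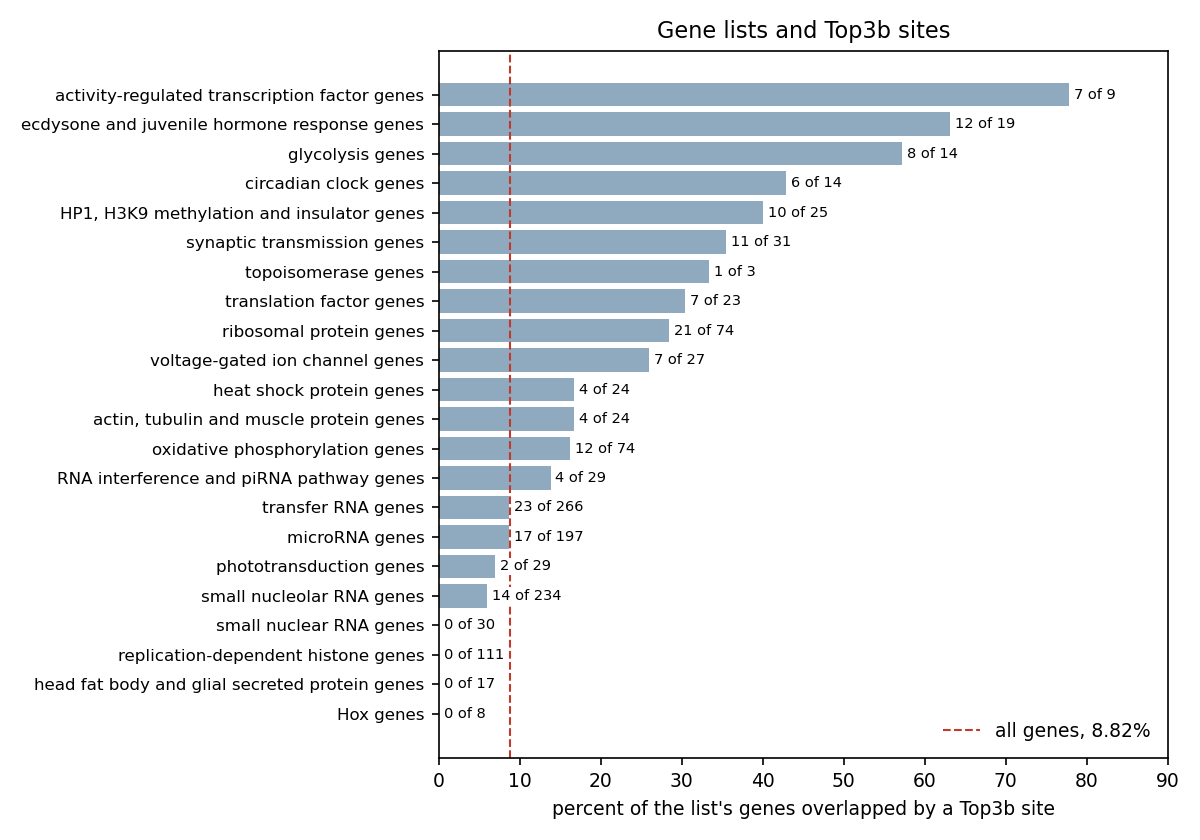
Percentage of the genes of each list that a Top3b site overlaps (x axis), with the number of genes beside each bar; the dashed line is the share of all genes, 8.82%. Activity-regulated transcription factors (7 of 9) and hormone-response genes (12 of 19) stand at the top and 4 lists have no site.

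Of the RNA interference and piRNA list 4 of 29 genes had a site (13.8%), against 9.71% of protein-coding genes, and the other 25, AGO2 among them, had none. Fmr1, which encodes FMRP, had a site of 3300 bp over its start (chr3R:10107201-10110500). HP1 covered it at 63.6%, 93.9% and 0% in w1118, 0% and 0% in AGO2 1-1-7, 0%, 100% and 0% in Top3b26 and 0% in both double mutant libraries. Tdrd3, the partner of Top3b, shared its site with bmm (chr3L:14784501-14787700), with HP1 at 78.1%, 81.2% and 78.1% in w1118, 0% and 93.8% in AGO2 1-1-7, 78.1%, 84.4% and 0% in Top3b26 and 78.1% in both double mutant libraries. The lines overlapped at both genes. AGO1, the Argonaute of the microRNA pathway, and Tudor-SN, a component of the silencing complex, were the other 2. Of the 3 topoisomerase genes in this euchromatin 1 had a site, Top2.

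Sequence at the sites was richer in simple repeats than the rest. CACACACA, on both strands, occurred 18.3 times per 10 kb in all sites and 43.2 times in intron sites, against 5.52 in the euchromatin. GAGAGAGA occurred 7.33 times in all sites, 18.3 times in intron sites and 1.29 times in the euchromatin. The shorter GAGAG, an element bound by GAGA factor, occurred 36.2 against 15.3 times, and these letters overlap those of GAGAGAGA. Median GC content was 44.5% in sites and 42.3% in windows of 2300 bp. Promoters, taken as 250 bases before to 50 after the start, held TATCGATA in 15.6% of the 901 in sites and 8.58% of all 11576, GGTCACAC in 13.8% and 7.59%, and TATAAA, the TATA box, in 37.6% and 46.8%. TATCGATA and GGTCACAC were thus more frequent, and TATAAA less frequent, than among all promoters, as counts of letters with no test.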

How the data were processed

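ChIP-seq of adult fly heads gave 33 island lists, and 22 input DNA samples were not used here. The methods state that 50-base reads were aligned by the authors to dm6 with Bowtie at up to 2 mismatches, that reads matching over 3 places were left out, and that SICER 1.1 called islands against input on 100-bp windows with a 5% false discovery limit. Per the submitters' processing notes, Bowtie2, FastQC, SAMtools 1.8, SICER and bedtools were used. Each deposited list gives an island's position and a whole-number score by the authors, after removal of input; how it was scaled was not stated in any source read. Scores were therefore used as a filter (200) and for ranks within a list. Sequencing depth is unknown, and lists held 585 to 11046 islands.

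Coverage was the percentage of bases inside islands on the 100-bp grid, and a site or 1-kb window counted as occupied at 50%. Groups came from the labels; nothing says that replicates were separate cultures, so p measures the spread between libraries. Means were compared by two-sided exact permutation, 14 tests adjusted by Benjamini and Hochberg. Deviations from group means over sites correlated between same-numbered libraries at 0.14, 0.45 and 0.21 for HP1 and 0.21, 0.19 and 0.21 for H3K9me3 of Top3b26 and w1118. These numbers were taken to pair the libraries, although HP1 of Top3b26 replicate 1 and w1118 replicate 3 reached 0.17. For H3K9me2 they were 0.51, 0.39 and 0.0058, which was not taken as pairing. Against w1118 they were -0.10 and -0.12 for AGO2 1-1-7 and -0.032 and -0.14 for the double mutant. For the double mutant they were -0.029 and -0.052 against Top3b26. Against AGO2 1-1-7 there was 1 value, 0.29, because with 2 libraries in each line both pairs give the same correlation by construction. The labels of Top3b replicate 2 and of H3K9me3 replicate 2 of Top3b26 contradict each other; titles were followed. Genes and starts came from BDGP 6.54, sequences from RefSeq. Named sites were the 15 longest, the 10 with the highest mean rank of score, the 5 or 8 longest of each pattern of HP1, H3K9 marks, FLAG and Top3b replicate 3, and sites of genes in the lists; others, such as the repeat sites, were chosen after their values were seen. Members and lists were chosen with earlier results of these data known. Joining, coverage and tests were tested on simulated data. Python 3.11.15, numpy 2.4.6, scipy 1.17.1 and pandas 2.3.3 were used. A few items are not reported here.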

Additional observations from a re-analysis of the deposited data

How the results depend on the processing

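Of the values recomputed under alternatives, 189 kept their direction and side of the threshold or, for counts and shares, stayed near the main value, 25 moved and 27 changed sign; no test can pass 0.05 at this size, so the calls carry no information on stability. Sites numbered 155 with a minimum score of 400, 4102 with none and 155 in all 3 Top3b replicates. The share at starts was then 85.2%, 54.3% and 44.5%, and 84.3% without the CAG-rich sites (an alternative chosen after seeing the data). With the sites unchanged, the share in Top3b replicate 3 was 41.5% with no minimum in that list and 4.59% with it at 400. It was 21.9% for sites of score 400 or more and 9.97% without the CAG-rich sites. Below, too, "at 400" and "no minimum" refer to the compared lists, with the sites unchanged. Untagged FLAG marked 99.4% by any overlap, and FLAG-AGO2 replicate 1 99.2% by any overlap, 96.3% at 400 and 99.4% of sites of score 400 or more. HP1 in all w1118 libraries was at 46.7% by any overlap and 36.2% at 400, and from 41.9% to 63.6% with 1 library left out. H3K9me2 in all of w1118 was at 3.74% by any overlap, 0.725% at 400 and 0.820% without the CAG-rich sites, and from 1.93% to 3.74% with 1 left out. H3K9me3 was at 1.45% with no minimum and from 0.604% to 2.05% with 1 left out.

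The difference in site coverage of the double mutant against Top3b26 ran from -29.5 to 2.99 points with 1 library left out (2.99 without Top3b26 replicate 2). Against AGO2 1-1-7 it ran from -23.0 to 19.1 (19.1 without AGO2 1-1-7 replicate 2, 8.96 without double mutant replicate 1), and was 20.8 over the 5 sites free of untagged FLAG. For H3K9me2 in Top3b26 it ran from -0.484 to 2.95 (-0.484 without w1118 replicate 1, -0.107 without Top3b26 replicate 3) and was -0.0135 at 400, -0.184 over sites in Top3b replicate 3 and -4.63 over the 5. The ratio difference of AGO2 1-1-7 from w1118 ran from -3.99 to 4.34 with 1 left out (-3.99 without AGO2 1-1-7 replicate 2, -0.240 without w1118 replicate 2, -0.890 without w1118 replicate 3) and was -1.36 with no minimum, -0.191 with lists of equal length, -0.187 for sites of score 400 or more, -6.19 over the 5 and -2.79 against w1118 replicate 1 alone. That of the double mutant from Top3b26 ran from -2.10 to 1.15 (1.15 without double mutant replicate 1, 0.817 without Top3b26 replicate 1, 0.114 without Top3b26 replicate 2) and was 0.206 for sites of score 400 or more, 0.695 over sites in replicate 3 and 2.66 over the 5. That from AGO2 1-1-7 ran from -6.98 to 1.35 (1.35 without AGO2 1-1-7 replicate 2) and was 5.59 over the 5. That of H3K9me2 was -0.249 over the 5. Over the same 5, H3K9me3 in Top3b26 differed by 13.4 points and by 3.79 in ratio, in the direction of the full set but far larger. The cause was not tested.

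With the replicate number as a block, coverage differences were -15.9 points for HP1 in Top3b26 (exact sign-flip p = 0.5), -40.0 in AGO2 1-1-7, -42.0 in the double mutant, -29.5 for the double mutant against Top3b26, 0.903 for H3K9me2 (exact p = 0.75) and 1.52 for H3K9me3 (exact p = 0.25); the ratio difference was -0.890 for AGO2 1-1-7. The block changed no other direction. The number is no established block where same-numbered libraries correlated negatively. These cases were AGO2 1-1-7 and the double mutant against w1118, and the double mutant against Top3b26.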
